A study of Mus musculus with 19 samples.

Results

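Segments D and E are neighbouring strips of mouse primary somatosensory cortex (S1), D holding lower layer 5 and E mostly layer 6, and the comparison takes every Ensembl gene listed in the expression tables of their libraries. Of the 19 samples in the series, 7 came from S1, in 6 segments from A (layers 1 to 3) at the surface to F (layer 6b) at the white matter, while the other 12 samples, of dorsal and lateral cortex, were not used here. All S1 tissue was from male C57BL/6 mice (C57BL/6J in the study's methods) aged 56 days (P56). The D library and the E library each held the pooled RNA of the same 8 mice, so there was 1 library per segment and no replicate of either. Layer 4 (segment B) alone had 2 libraries, B1 and B2, which pooled 4 littermates each. The ratio of B2 to B1 of each gene therefore served as the replicate reference (n = 2) for its ratio of E to D.

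Layer 5 holds the large pyramidal neurons that send axons to the spinal cord, brainstem and striatum, together with intratelencephalic and near-projecting neurons. Most pyramidal neurons of layer 6 are corticothalamic, feeding back to the thalamus, and the thin layer 6b beneath them holds neurons that persist from the embryonic subplate. The white matter that bounds the cortex below is rich in oligodendrocytes, the cells that make myelin. In whole tissue, fewer cells of a type and less RNA per cell cannot be told apart.

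The tables gave the abundance of a gene as fragments per kilobase of exon model, scaled to the number of mapped fragments (FPKM), together with a 95% interval, which covers the estimate within a library and no variation between mice. Estimated depth was 45.9 M fragments in D and 43.8 M in E, within a range of 31.3 to 74.9 M over the 7 libraries, and the median interval spanned 12.8% of the FPKM in D and 12.9% in E. Of 24130 genes listed in any S1 library, 11409 were classifiable, meaning that their widest interval over the 7 libraries was at most 50% of their mean FPKM. A gene was called higher in a segment when it was classifiable, when its D and E intervals did not overlap, when its ratio was at least 2-fold after adding 0.1 FPKM to both values, and when that ratio was larger than its ratio between the litters B1 and B2. By this rule 88 genes (0.771%) were called higher in E and 121 (1.06%) higher in D, together 1.83% of the genes examined.

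For most genes the ratio between D and E was smaller than that between B1 and B2. D and E pooled the same mice, whereas B1 and B2 held different mice. Differences between litters and between library preparations cannot be told apart in B1 and B2. The median size of the log2 ratio was 0.16 between D and E and 0.29 between B1 and B2, and the value that 95% of genes stayed under was 0.71 and 1.07. The D and E intervals did not overlap for 5141 genes (45.1%), and those of B1 and B2 for 7577 (66.4%). Of the 5141, 3164 had a ratio toward E and 1977 toward D. Over all 11409 classifiable genes, 6691 had a ratio toward E and 4584 toward D. At 2-fold with nonoverlapping intervals, and with no condition on the litters, 250 genes (2.19%) passed between D and E and 688 (6.03%) between the litters. The ratio of E to D exceeded the gene's own litter ratio for 3792 genes (33.2%). The litter ratio fell with transcript GC content (Spearman rho of -0.54) across the 10801 genes with a reference transcript, whereas the ratio of E to D gave a rho of -0.12. These are descriptions across genes, which are not independent replicates. The part of GC content in the calls was addressed only by centring the ratios on it, after which 83 genes were called higher in E and 136 higher in D.

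**Figure D1:**
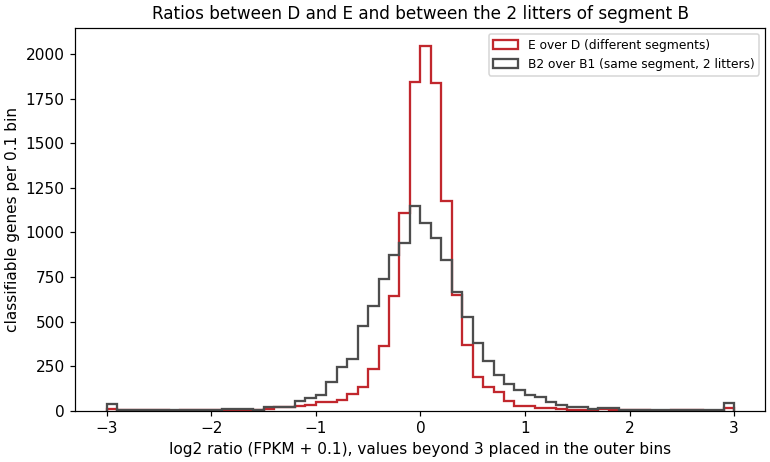
Histogram of the log2 ratio of FPKM (0.1 added) for 11409 classifiable genes, between segments E and D (red) and between the litters B2 and B1 of layer 4 (grey), with the number of genes per bin of 0.1 on the y axis. The ratios between the segments are narrower, with a median size of 0.16 against 0.29.

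The one test that the libraries allow, limma's moderated test of E against D with the spread taken from B1 and B2 alone, passed 0 of 11409 genes at an adjusted p of 0.05. The smallest adjusted p was 0.414, and 177 genes had an unadjusted p under 0.05, of which 80 were higher in E and 97 higher in D. Data were simulated with each gene's B1 to B2 difference taken for its true spread, which is itself an estimate from 2 libraries. On them this test found 0% of genes changed 4-fold, 16-fold, 64-fold or 256-fold. Its power in the real data is not settled by this, and its count of 0 is not read as the number of genes that differ. Every call described here is therefore a difference between 2 libraries, measured against the spread of 2 other libraries.

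Some genes had no line in a table although neighbouring libraries listed them at moderate levels. Of the 88 genes called higher in E, 20 had no line in D, and of the 121 called higher in D, 20 had no line in E. Prkag1, a subunit of AMP-activated protein kinase, was listed at 22.9 FPKM in D and 21.6 in C and had no line in the other 5 libraries. Timp4, a metalloproteinase inhibitor, was listed at 12.4 FPKM in D, at between 8.30 and 12.1 in the other libraries and not at all in E. Paxbp1 was listed at 5.30 FPKM in E and between 3.86 and 4.95 in A, B1, B2 and F, with no line in C or D. Such a missing line can be a failed estimate. No fold is given for these genes, and the leading genes described next are those listed in both D and E, 68 higher in E and 101 higher in D.

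**Figure D2:**
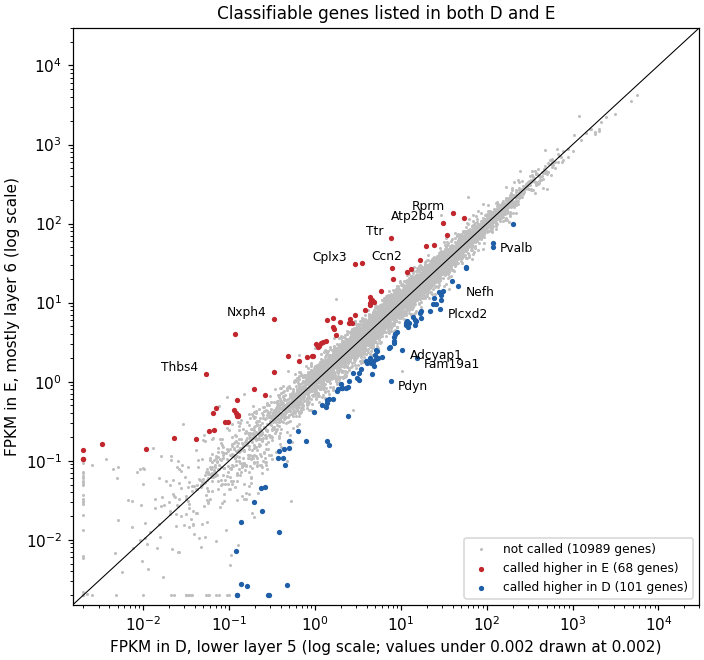
FPKM in D (x axis) against FPKM in E (y axis), both on a log scale, for the classifiable genes listed in both libraries, with 68 genes called higher in E in red, 101 called higher in D in blue and the line of equal values in black. Nxph4, Cplx3, Thbs4, Ccn2 and Ttr stand farthest above the line among the labelled genes and Fam19a1 and Pdyn farthest below it.

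Among the genes with the largest ratios toward E were 3 of the layer 6b list, Nxph4, Cplx3 and Ccn2. Nxph4 (chr10:126962529-126971615 in mm9), a neurexophilin that binds neurexins, was at 0.33 FPKM in D and 6.20 in E, a 14.5-fold difference on the scale with 0.1 added. It was at 41.3 in F, 0.16 in C, 0.05 and 0.06 in the litters and 0.40 in A. Cplx3 (chr9:57449183-57454038), a complexin that acts in synaptic vesicle release, was at 2.90 FPKM in D and 30.5 in E, which is 10.2-fold. It was at 9.24 in A, 3.22 in both B1 and B2, 2.29 in C and 164 in F. Ccn2 (chr10:24315248-24318489), the gene of connective tissue growth factor and a marker of layer 6b, was at 3.53 FPKM in D, 31.4 in E and 167 in F, with 0.63 to 1.51 in A to C. For these 3 genes E stood between D and F, several-fold above D and several-fold below F, and B1 and B2 differed by a log2 ratio of at most 0.28.

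Thbs4, a thrombospondin of the extracellular matrix, followed the same order at lower levels, with 0.05 FPKM in D, 1.26 in E and 22.5 in F. Ttr, which encodes the thyroid hormone carrier transthyretin and is made at very high levels by the choroid plexus, was at 7.70 FPKM in D, 65.7 in E and 199 in F, and at 25.4 in A against 1.07 to 1.42 in B1, B2 and C. Other genes of the choroid plexus, picked after Ttr had been seen, stayed low. Folr1 was at 0.25 FPKM in D, 0.83 in E and 1.86 in F, Clic6 at 0.10, 0.35 and 0.65, Kcne2 at 0.05, 0.22 and 0.39, and Otx2 at 0.03, 0.09 and 0.23. Kl was at 0.13, 0.30 and 0.82, Sostdc1 at 0.14, 0.26 and 0.61, and Prlr at 0.09, 0.06 and 0.22. None of the 7 was classifiable. The part of choroid plexus RNA in the Ttr values was not tested.

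Further leading genes came from outside the layer 6b list. Adra2a, the alpha-2A adrenergic receptor, was at 1.60 FPKM in D and 6.43 in E, with 1.20 to 1.77 in A to C and 18.1 in F. Atp2b4, a calcium pump of the plasma membrane, was at 30.8 FPKM in D and 103 in E, with 13.3 to 18.5 in A to C and 148 in F. Trp53i11 was at 7.82 in D and 27.1 in E, but also at 30.7 in A and 63.7 in F. Ap1g2, a subunit of a clathrin adaptor, was at 0.48 in D and 2.12 in E with its highest level, 4.70, in A. Trp53i11 and Ap1g2 thus were not ordered by depth. The other leading genes toward E were Sla and Rprm, described with the corticothalamic genes, and Gm22721, annotated as a miRNA of 83 bases. Gm22721 was at 0.12 FPKM in D and 4.01 in E. This 19.0-fold difference (0.1 added) was the largest toward E among genes listed in both libraries. The study extracted long RNA and sequenced polyadenylated RNA. Which RNA gave the fragments counted for Gm22721 was not tested.

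The largest ratio toward D was that of Fam19a1 (chr6:96063148-96607192), a secreted chemokine-like protein of neurons, at 15.2 FPKM in D and 1.97 in E, a 7.39-fold difference. F held 0.70, C 25.4, the litters 8.36 and 13.5 and A 29.7, so that E and F stood below every other library. Pdyn (chr2:129512301-129525569), the precursor of dynorphin peptides, was at 7.58 FPKM in D and 1.03 in E, or 6.81-fold, with 15.4 in C and 1.82 in F. Adcyap1, the precursor of the neuropeptide PACAP, was at 10.4 in D and 2.54 in E, with 13.2 in C and 0.66 in F. Both peptide genes peaked in upper layer 5.

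Plcxd2, a phospholipase-like gene, was at 28.7 FPKM in D and 8.32 in E after 50.5 in C, and 36.6 and 36.2 in the litters. Nefh (chr11:4838757-4848067), the heavy neurofilament subunit of large axons, was at 46.4 in D, 16 in E and 51.6 in C. Boc, a receptor of hedgehog signals and cell adhesion, was at 4.62 in D and 1.25 in E. Rhbdl3, a rhomboid-like protein, was at 3.26 and 1.06. Bhlhe22, a transcription factor of neuronal development, was at 6.02 and 2.08, with 18.4 in B1 and 11.4 in B2. All of these were highest outside D, in B1 or C. Weaker genes of the leading 12 were Kpna7, an importin, at 1.36 FPKM in D and 0.18 in E, and the unnamed 4930404I05Rik, at 1.45 and 0.16. The span of 4930404I05Rik overlaps that of Paxbp1. It was at 1.37 FPKM in C and at 0.16 to 0.20 in every library other than C and D. It was thus high only in C and D, where Paxbp1 had no line. The part of the missing Paxbp1 estimate in this call was not tested.

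Start regions of the leading genes were read from RefSeq (GRCm38.p6), 250 bases before to 50 bases after the transcription start, to show what kind of promoter each has. The 2 more highly expressed of the first 3 genes with an entry are shown for each direction, with every CG dinucleotide in capitals. Nxph4, Ccn2, Ttr, Sla and Gm22721, which ranked among the first, had no entry.
Cplx3 (chr9:57606232-57606531, minus strand): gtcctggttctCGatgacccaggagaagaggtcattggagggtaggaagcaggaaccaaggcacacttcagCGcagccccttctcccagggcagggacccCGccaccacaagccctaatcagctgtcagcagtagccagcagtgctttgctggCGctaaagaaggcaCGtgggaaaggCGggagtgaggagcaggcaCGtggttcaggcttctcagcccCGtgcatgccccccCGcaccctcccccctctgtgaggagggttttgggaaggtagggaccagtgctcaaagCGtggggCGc
Adra2a (chr19:54045009-54045308, plus strand): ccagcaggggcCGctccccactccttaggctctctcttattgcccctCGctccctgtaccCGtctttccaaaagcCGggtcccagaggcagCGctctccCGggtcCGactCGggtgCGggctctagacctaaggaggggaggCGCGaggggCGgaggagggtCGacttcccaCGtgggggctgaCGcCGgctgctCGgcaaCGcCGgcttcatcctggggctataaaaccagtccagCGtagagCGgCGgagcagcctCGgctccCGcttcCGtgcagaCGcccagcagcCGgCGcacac
Fam19a1 (chr6:96112904-96113203, plus strand): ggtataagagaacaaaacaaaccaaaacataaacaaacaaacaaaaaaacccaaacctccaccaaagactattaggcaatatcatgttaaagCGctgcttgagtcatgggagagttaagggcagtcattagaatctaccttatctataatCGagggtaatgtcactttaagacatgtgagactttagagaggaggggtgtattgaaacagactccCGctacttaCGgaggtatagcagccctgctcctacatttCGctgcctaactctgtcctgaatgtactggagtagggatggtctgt
Pdyn (chr2:129699889-129700188, minus strand): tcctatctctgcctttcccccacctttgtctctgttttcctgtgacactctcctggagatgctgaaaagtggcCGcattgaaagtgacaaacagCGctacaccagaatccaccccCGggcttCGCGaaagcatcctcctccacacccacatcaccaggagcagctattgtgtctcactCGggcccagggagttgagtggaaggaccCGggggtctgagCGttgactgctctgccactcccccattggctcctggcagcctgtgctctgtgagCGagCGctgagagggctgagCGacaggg

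The window of Cplx3 held 11 CG dinucleotides, that of Adra2a 28, that of Fam19a1 5 and that of Pdyn 11. Among genes listed in both libraries, the median was 19 CG dinucleotides over 37 windows of genes called higher in E and 15.5 over 66 of genes called higher in D. It was 22 over the 8021 classifiable genes with an entry and 7 over all 27025 RefSeq windows. Each window was also searched on both strands for a TATA box (TATAAA), a CRE (TGACGTCA), a T-box (AGGTGTGA) and an E-box (CAGATG). Of the 4 windows printed, that of Adra2a alone held a match, TATAAA on the gene's strand 29 bases before the start. TATAAA was in 4 of 37 windows toward E (10.8%), in 3 of 66 toward D (4.55%) and in 14.2% of all windows, and CAGATG in 2 of 37 (5.41%), 9 of 66 (13.6%) and 17.2%. AGGTGTGA was in 0 and 2 of these windows and in 1.27% of all, and TGACGTCA in none of either and in 1.88% of all. A match is a match of letters and no evidence of binding.

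The label of D was checked against 28 genes of layer 5 neurons, of which 21 were classifiable. Of these, 7 were called higher in D and 1 higher in E, 18 had a ratio toward D, and 16 differed more between D and E than between the litters. Of all 11409 classifiable genes, 1.06% were called higher in D and 0.771% higher in E. A ratio toward D was found for 4584 of them, and 33.2% exceeded their litter ratio. The median log2 ratio of E to D was -0.62 for the list, beside 0.05 over all classifiable genes. The 7 called higher in D were Parm1, Npr3, Fam84b, Bcl6, Etv1, Tmem200a and Kcng1. Etv1, a transcription factor of layer 5, was at 5.36 FPKM in D and 2.0 in E, next to 7.60 in C, 1.83 and 2.70 in the litters B1 and B2, 1.24 in A and 2.69 in F. Parm1, a membrane glycoprotein, was at 28.8 in C, 21.5 in D and 7.75 in E. Bcl6, a transcriptional repressor, was at 10.8 in C, 8.43 in D and 4.04 in E. Npr3, the clearance receptor of natriuretic peptides, was the one with its highest level in D, at 4.43 against 4.00 in C and 1.72 in E. All of the 7 except Npr3 were higher in C than in D.

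Not every gene of the layer 5 list had a ratio toward D. Fezf2 and Bcl11b, the transcription factors that specify subcerebral neurons, parted. Fezf2 was at 22.5 FPKM in D and 13.3 in E, a log2 ratio of -0.76 against -0.64 between the litters, and missed the 2-fold limit. Bcl11b was at 14.5 in D and 17.7 in E, a log2 ratio of 0.29, smaller than its litter ratio of -0.46. Crym was at 34.3 and 32.5, Ldb2 at 31.7 and 29.6, and Igfbp4 at 94.9 and 89.9, so that these genes of deep layers were nearly level. S100a10 just missed the limit, at 25.1 and 12.7. Grp, the precursor of gastrin-releasing peptide, was called higher in E, at 4.38 in D and 9.78 in E with 0.72 to 3.82 in A to C and 5.07 in F.

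The label of E was checked against 20 genes of layer 6 corticothalamic neurons, of which 16 were classifiable. Here 7 were called higher in E and 0 higher in D, 15 of 16 had a ratio toward E, and the median log2 ratio was 0.79. Over all 11409 classifiable genes, 0.771% were called higher in E and 1.06% higher in D, and 6691 had a ratio toward E. Rprm (chr2:53936504-53937963), a cell cycle inhibitor, was at 40.3 FPKM in D and 134 in E, next to 125 in F, 17.8 in C, 4.67 and 5.20 in the litters and 2.98 in A. Sla, an adaptor of kinase signalling, was at 1.37 in D, 6.02 in E and 8.65 in F and at 0.51 or less above D. Zfpm2, a cofactor of GATA factors, was at 4.32 in D and 11.9 in E, and Hs3st4, a heparan sulfate sulfotransferase, at 34.8 and 72.5. Ppp1r1b, the phosphatase regulator DARPP-32, was at 53.7 and 118, Ntsr1, a neurotensin receptor of corticothalamic neurons, at 2.49 and 5.51, and the corepressor Tle4 at 16.8 and 35.0. Every one of these 7 was already higher in D than in C, with D between C and E.

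Tbr1, a transcription factor of layer 6, was at 45.8 FPKM in D and 73.5 in E and was not called, since its log2 ratio of 0.68 was under the 2-fold limit. Ighm was at 42.3 and 76.6, with a litter ratio of 0.94 that was larger than its segment ratio of 0.85. Sox5, at 11.7 and 12.9, and Sema3e, at 10.3 and 11.1, were nearly level. Crim1 alone had a ratio toward D, at 10.7 against 7.64. Some genes that the interval filter removed had ratios as large as the called ones, namely Foxp2 at 5.03 and 13.2 FPKM, Syt6 at 10.4 and 22.5, and Sulf1 at 2.20 and 13.6. This does not hold for every removed gene. Nfia of this list was also removed, as were Deptor, Qrfpr and Cdh13 of the layer 5 list, and their values are not given here.

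**Figure D3:**
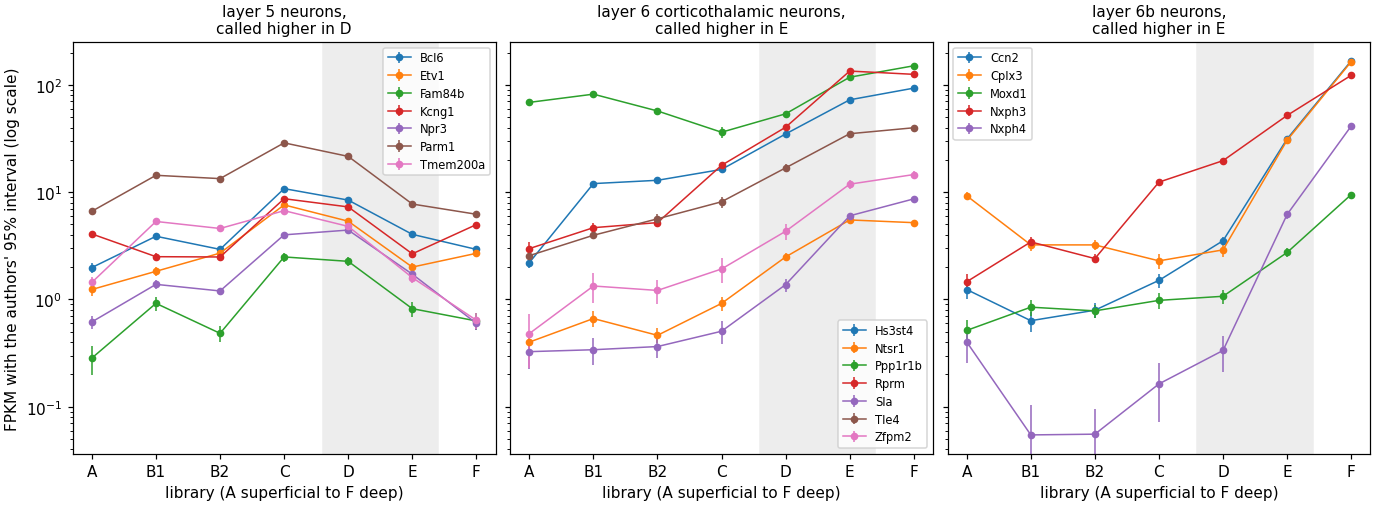
FPKM on a log scale with the authors' 95% interval in each of the 7 libraries for the called genes of the layer 5 list (left, 7 genes higher in D), the layer 6 corticothalamic list (middle, 7 genes higher in E) and the layer 6b list (right, 5 genes higher in E), with D and E shaded. Layer 5 genes are highest in C or D, corticothalamic genes climb over C, D and E, and layer 6b genes climb further from E to F.

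Of 14 genes of layer 6b neurons, 9 were classifiable, with a median log2 ratio of 1.28. Over all classifiable genes 0.771% were called higher in E, and of the 9 genes 5 were, with 0 higher in D. Beside Nxph4, Cplx3 and Ccn2, these were Nxph3, another neurexophilin, at 19.7 FPKM in D, 51.9 in E and 123 in F, and Moxd1, a monooxygenase, at 1.07, 2.74 and 9.49. Drd1, the D1 dopamine receptor, was at 2.92 and 5.87, just under the limit. Kcnab1, at 24.6 and 22.0, and Tmem163, at 7.73 and 7.17, had a ratio toward D although both were highest in F. The summed level of the 14 genes was 80.9 FPKM in D, 190 in E and 665 in F. How much layer 6b tissue the E dissection held was not tested.

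Near-projecting neurons of layer 5 were covered by 5 genes, of which the 2 classifiable ones, Vwc2l and Lypd1, were both called higher in D. The share called higher in D over all classifiable genes was 1.06%. Vwc2l, a secreted protein, was at 2.06 FPKM in D and 0.82 in E, and Lypd1, a modulator of nicotinic receptors, at 16.9 and 7.89, with 14.3 in F. Tshz2, which defines these neurons but whose intervals were too wide, was at 13.8 and 4.89. Of 10 genes of layer 6 intratelencephalic neurons, 4 were classifiable and 0 were called, with a median log2 ratio of 0.32. Car12 was at 1.29 and 2.52, and Cdh9 at 8.24 and 13.4, whereas Synpr was at 14.1 and 10.8. Osr1, which was not classifiable, was at 0.39 in D and 1.94 in E. Of 15 classifiable genes of layers 2 to 4, 1 was called, the Wnt agonist Rspo1, at 1.38 in D and 0.53 in E beside 30.1 in B1. Their median was -0.24, beside a litter median of -0.30, with 11 genes toward D and 4 toward E. Only 6 of the 15 exceeded their own litter ratio (33.2% of all genes did). Rorb, the layer 4 factor, was at 4.37 and 2.23.

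**Figure D4:**
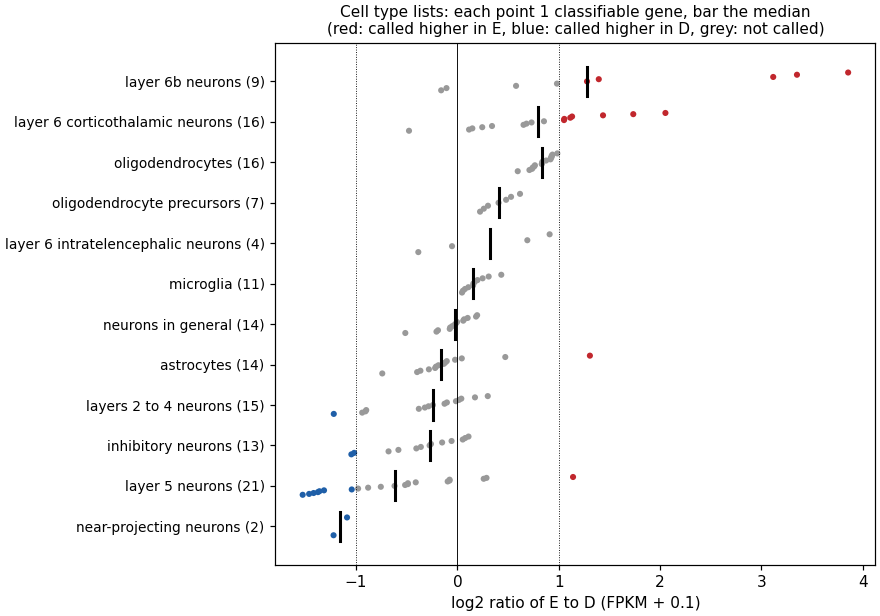
Log2 ratio of E to D (0.1 FPKM added) of each classifiable gene in 12 cell type lists, with the number of genes in brackets, the median as a black bar and dotted lines at the 2-fold limits; red genes were called higher in E and blue genes higher in D. Oligodendrocyte genes all lie right of 0, layer 6b and corticothalamic genes mostly right of it and layer 5 genes mostly left of it.

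Oligodendrocyte genes had ratios toward E that stayed under the 2-fold limit. All 16 genes were classifiable and had nonoverlapping intervals, all 16 had a ratio toward E, and 15 exceeded their litter ratio, but 0 were called. Over all 11409 classifiable genes, 6691 had a ratio toward E, 3164 of them with nonoverlapping intervals. Their log2 ratios lay between 0.60 for Sox10 and 0.99 for Ermn, with a median of 0.84. Mbp, a main protein of myelin, was at 1203 FPKM in D and 2291 in E, next to 6954 in F, 922 in C, 460 and 469 in the litters and 172 in A. The list summed to 2334 FPKM in D, 4331 in E and 13202 in F. Precursor genes had 7 of 7 classifiable members toward E with a median of 0.41, and 0 called. Only 3 of these 7 exceeded their own litter ratio (33.2% of all genes did), and the litter median of the list was -0.38. The summed level of oligodendrocyte genes thus rose from D to E, as did those of the corticothalamic and layer 6b genes. From E to F the layer 6b sum rose too, from 190 to 665 FPKM, whereas the corticothalamic sum was 737 and 776. The part of oligodendrocyte RNA in the layer 6 and layer 6b results was not tested.

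Of 14 astrocyte genes, 11 had a ratio toward D, 9 of these with nonoverlapping intervals, and 9 of the 14 exceeded their litter ratio (33.2% of all genes did). Among all 11409 classifiable genes, 4584 had a ratio toward D, 1977 of them with nonoverlapping intervals. The shares called over all these genes were 0.771% toward E and 1.06% toward D, for this list and the next ones. The one astrocyte gene called, toward E, was Gfap, the intermediate filament of reactive and white matter astrocytes. Gfap was at 8.09 FPKM in D and 20.2 in E, with 126 in F. It was also at 34.4 in A, against 4.42 to 5.81 in B1, B2 and C, and thus was not ordered by depth. The other astrocyte genes had log2 ratios of -0.74 (Gjb6) to 0.47 (Aqp4), with a list median of -0.16. Microglia genes had a median of 0.16 with 0 of 11 called, from 0.05 for C1qc to 0.43 for Aif1. Endothelial and mural genes had a median of 0.01, which turned negative under 3 of the alternative settings, and 1 of 14 called, the smooth muscle actin Acta2, at 2.75 in D and 1.28 in E. The 2 classifiable haemoglobin genes of the list for meninges and blood were level, Hba-a1 at 18.7 and 20.1 and Hba-a2 at 48.2 and 55.0, and the list's median was 0.15 (-0.02 once every member averaging 0.1 FPKM or more was counted).

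Lists also covered tissue that borders the cortex. Of 11 striatal genes 5 were classifiable and 1 was called, Syndig1l, at 1.03 FPKM in D and 3.01 in E, with 18.3 in F. The median log2 ratio was 0.41. Over all classifiable genes, 0.771% were called higher in E. Of the defining genes, which were under 1 FPKM in both segments and not classifiable, Drd2 was at 0.45 and 0.48 FPKM and Adora2a at 0.43 and 0.89. Of 8 hippocampal genes 3 were classifiable and 0 called, with a median of 0.56, which ranged from 0.07 to 0.61 over the alternative settings. Prox1 was at 1.29 and 2.06.

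Inhibitory neurons had 13 classifiable genes, 2 of them called higher in D and 0 higher in E, with a median log2 ratio of -0.27. Over all classifiable genes, 1.06% were called higher in D. Pvalb, the calcium buffer of fast-spiking cells, was at 117 FPKM in D and 56.4 in E, next to 16.5 in F, 145 in C, 70.2 and 118 in the litters and 61.1 in A. Reln, a secreted matrix protein, was at 5.19 in D and 2.51 in E. The GABA synthesis enzyme Gad1 was at 67.2 and 50.7 and its partner Gad2 at 22.6 and 21.7. The peptide genes Sst, at 299.6 and 269.9, Vip, at 8.36 and 8.82, and Npy, at 139 and 144, were close to level. General neuronal genes had a median of -0.02, with 0 of 14 called and Tubb3 the lowest at 153 and 107.

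Among 18 classifiable genes of the axonal cytoskeleton, the neurofilament subunits Nefh and Nefm were called higher in D, beside 1.06% of all classifiable genes. Nefm was at 202 FPKM in D and 98.2 in E, with 38.0 in F. The median of the list was -0.08, and Ank2 had the highest ratio, at 101 and 117. Among 43 potassium and HCN channels 1 was called, Kcng1, a modulatory subunit, at 7.28 in D and 2.66 in E, and the median was -0.01. Kcnk9, a leak channel, was at 6.71 and 9.97. Of 24 sodium and calcium channels 1 was called, Scn4b, the beta-4 sodium channel subunit, at 57.5 in D and 27.8 in E, and the median was 0.09. Cacna1e, an R-type calcium channel, went the other way, at 13.3 and 21.9.

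Of 13 ionotropic glutamate receptor genes 0 were called, with a median of 0.17 and the kainate receptor Grik4 at the top, at 6.98 FPKM in D and 12.6 in E. Of 12 GABA-A receptor subunits 0 were called, with a median of -0.05 and a range from Gabrg1, at 4.73 and 3.14, to Gabrb1, at 14.4 and 18.2. With 1.83% of all genes called, counts of 0 in lists of this size are at the background. Monoamine and acetylcholine receptors had 3 of 21 called and a median of -0.11. Adra2a was higher in E, and the alpha-1D adrenergic receptor Adra1d, at 15.1 and 5.93, and the histamine autoreceptor Hrh3, at 39.8 and 18.5, were higher in D. Adra1d was at 46.5 in B1 and 18.5 in B2, a litter ratio of -1.32 that its segment ratio of -1.33 barely exceeded.

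Neuropeptides and their receptors had 25 classifiable genes, of which Grp and Ntsr1 were called higher in E and Pdyn and Adcyap1 higher in D, with a median of 0.05. Among 32 axon guidance genes, the semaphorin Sema5a was called higher in E, at 5.87 FPKM in D and 14.1 in E, and the ephrin receptor Epha6 higher in D, at 2.04 and 0.83, with a median of 0.05. The medians of both lists turned just negative under median-of-ratios scaling. Cadherins had 3 of 20 called, all higher in D. Of all classifiable genes, 1.06% were called higher in D and 0.771% higher in E. Cdh22 was at 11.9 and 5.30, Cdh20 at 8.51 and 3.98, and Cdh8 at 11.8 and 5.82. Cdh18 was at 10.4 and 17.1, and the median was 0.05. Immediate early genes had 0 of 14 called and a median of 0.17, beside a litter median of -0.83.

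Genes of energy metabolism had medians toward D, and 0 of them were called. As background, 4584 of all 11409 classifiable genes had a ratio toward D, 1977 of them with nonoverlapping intervals. The nuclear respiratory chain list (oxidative phosphorylation) had a median of -0.19, with 52 of 65 toward D and 40 with nonoverlapping intervals toward D, but their litter median was 0.56 and 20 of 65 exceeded their own litter ratio. Cox6a2, a subunit of cytochrome oxidase, had the lowest ratio, at 14.2 FPKM in D and 7.15 in E. Citrate cycle genes had a median of -0.12, with 18 of 24 toward D. The 20 classifiable genes of the mitochondrial genome had a median of -0.33 and a litter median of 1.58, and 0 exceeded their own litter ratio. All listed genes of the mitochondrial genome, classifiable or not, held 9.58% of summed FPKM in D and 7.67% in E, beside 7.76% in B1 and 18.2% in B2. Cytosolic ribosomal proteins had a median of 0.03, which turned negative under median-of-ratios scaling and GC centring, with 0 of 33 called. Cholesterol synthesis genes had a median of 0.15, with 16 of 17 toward E and 0 called, beside 6691 of all 11409 genes toward E.

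The levels of the called genes were also read in the neighbouring libraries. The call rule fixes the order of D and E in the counts and medians that follow. A gene called higher in E could thus not be highest in D, nor the reverse. The same counts over all classifiable genes are not given here. Of the 68 genes called higher in E and listed in both libraries, 36 had their highest level in F and 18 in E, and the others in A (7), C (5) or B1 (2). Their median FPKM was 1.21 in D and 3.61 in E, between 0.71 in C and 5.90 in F. Of the 101 genes called higher in D, 45 had their highest level in C and 22 in D, and the others in B1 (16), A (9), B2 (5) or F (4). Their median FPKM was 4.52 in D and 1.72 in E, between 6.35 in C and 1.35 in F. The same rule called 171 genes (1.5%) between C and D and 451 (3.95%) between E and F, comparisons that share the D or E library with this one.

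Isoforms were compared with the transcript tables, in which 1995 genes had at least 2 classifiable isoforms. Between D and E, 440 of them (22.1%) had 1 isoform higher in D and another higher in E by nonoverlapping intervals. Between the litters the same count was 775 (38.8%), and 257 genes were in both sets, 58.4% of the first and 33.2% of the second. Map4, a microtubule-associated protein, was among the genes whose shares moved more between the segments than between the litters. Its transcript ENSMUST00000065171 was at 26.8 FPKM in D and 17.7 in E, and its share of the gene was 49.8% and 34.1%, next to 18.9% in F, 59.6% in C, 71.9% and 66.0% in the litters and 68.9% in A. ENSMUST00000072772 was at 19.9 and 24.7 FPKM, and its share was 37.2% and 47.5%, next to 61.4% in F, 27.0% in C, 19.4% and 19.8% in the litters and 13.2% in A.

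**Figure D5:**
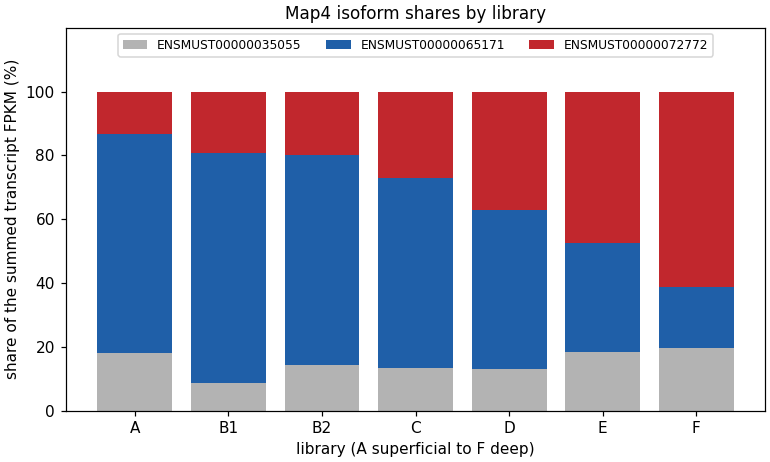
Share of the summed transcript FPKM of Map4 taken by each of its 3 isoforms, in percent, in the 7 libraries from A to F. From B to F the share of ENSMUST00000065171 (blue) falls and that of ENSMUST00000072772 (red) rises, with D at 49.8% and 37.2% and E at 34.1% and 47.5%.

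Among genes whose classifiable isoforms were listed in both D and E, a choice made after the values were seen, Osbp2, an oxysterol-binding protein, had the largest shift of share. Its transcript ENSMUST00000101633 took 81.1% of the gene in D and 41.9% in E, at 19.2 and 9.04 FPKM, 56.5% in C, and 46.4% and 50.3% in the litters. Isoforms of Osbp2 that were not classifiable were at 0 in D. ENSMUST00000155197 took 0% in D, 19.1% in E, 23.3% in C, and 33.8% and 19.7% in the litters. ENSMUST00000101632 took 0% in D and 8.29% in E. The part of these absent isoforms in the share of 81.1% was not tested. Of the 5 largest shifts by the original rule, 4 had no line in D or in E for one of the pair of isoforms that moved most. In Aplp1, an amyloid precursor-like protein, ENSMUST00000006828 was at 361 FPKM in D and was not listed in E, where ENSMUST00000098581 was at 457, although the first took 100% of the gene in all 6 other libraries. Atp5j, Wdr61 and Gm21974 likewise each had an isoform listed in one of D and E only. In Ccdc167 the main isoforms were listed in both, with ENSMUST00000024815 at 16.1% of the gene in D and 64.5% in E, and ENSMUST00000131807 at 53.7% and 15.3%. Its shares differed by 37.7 and -36.4 percentage points between the litters.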

How the data were processed

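Polyadenylated RNA of the dissected S1 segments was sequenced from both ends. Per the submitters' processing notes and the study's methods, reads were mapped to mm9 with TopHat 1.0.13, and the authors estimated FPKM of Ensembl release 57 genes and transcripts with Cufflinks 0.8.3 and deposited the FPKM with 95% intervals, per library. The transcript coverage (signal) that the authors deposited, not normalized for depth, was used only to estimate depth, with 2 ends of 50 nt per fragment. A gene without a line in a library was set to 0. De novo models were not used.

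Symbols, biotypes, GC content and length came from GENCODE M21 by identifier. Transcripts were assigned to genes by position within their locus, and the transcripts of 98.0% to 98.6% of genes then summed to the gene FPKM within 1%. Ratios were computed on log2(FPKM + 0.1) with Python 3.11.15, and limma 3.58.1 in R 4.3.3 fitted all 7 libraries, with 6 segments as groups (1 residual degree of freedom) and Benjamini-Hochberg adjustment. The call rule and limma were tested on simulated data.

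Named were the 12 called genes with a symbol and at least 1 FPKM that had the largest ratio in each direction, continued to 12 genes listed in both D and E after values had been seen, all classifiable members of the layer 5 and corticothalamic lists, called members of the other lists with their lowest and highest ratios, Map4 and the 5 genes with the largest isoform shift. A few list members outside this rule (such as Gad1, Foxp2, Rorb, Drd2 and Mbp) and the choroid plexus genes were picked after their values were seen. The comparison and the 31 gene lists were chosen with earlier results of these data known. Alternatives varied the scaling, pseudocount, filters, interval width, fold limit, litter condition and GC content. Results for some items are not reported here.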

Additional observations from a re-analysis of the deposited data

How the results depend on the processing

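D and E each rested on 1 library, so that depth limits only the precision within a library. Differences between mice were sampled by B1 and B2 alone, where they cannot be told apart from differences between libraries. The calls depended on the limits set for low values and on the fold. The 88 genes called higher in E became 168 with a pseudocount of 0.01, 36 with 1, 52 with an interval limit of 25% of the mean, 137 with 100%, 260 with no interval filter, 50 with a mean of at least 1 FPKM, 345 at a fold of 1.5, 18 at a fold of 4 and 52 over protein-coding genes (added after seeing the data). The 121 genes called higher in D became 204 with a pseudocount of 0.01, 47 with 1, 249 with no interval filter, 77 with a mean of at least 1 FPKM, 337 at a fold of 1.5 and 18 at a fold of 4. No gene called in one direction was called in the other under any of these settings. Median-of-ratios scaling moved all ratios by -0.05 (log2) and gave 77 and 122 calls, of which 76 and 111 were shared. Without replicate 1 or 2 of segment B, which removes the litter condition, 111 to 114 genes were higher in E and 140 higher in D. The limma count stayed at 0 under all settings, with 151 to 254 genes at an unadjusted p under 0.05; without a replicate of B no residual degree of freedom was left, and no value was computed.

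The medians of the layer 5, corticothalamic and layer 6b lists (-0.62, 0.79 and 1.28) kept their direction under all alternatives. That of layer 5 was -0.67 with median-of-ratios scaling, -0.54 with a pseudocount of 1, -0.65 over members with a mean of at least 0.1 FPKM and -0.72 with GC-centred ratios. That of the corticothalamic list was 0.95 over members with a mean of at least 0.1 FPKM, and 0.74 to 0.80 otherwise. That of layer 6b was 1.22 with median-of-ratios scaling, 1.35 and 0.85 with pseudocounts of 0.01 and 1, 1.13 over members with a mean of at least 0.1 FPKM and 1.24 with GC-centred ratios. The medians of endothelium and mural cells, meninges and blood, axon guidance, neuropeptides and ribosomal proteins changed sign under at least 1 alternative, all from medians of at most 0.15. All 65 named genes that were called kept their direction under scaling, both pseudocounts and GC centring. Genes with isoforms in opposite directions numbered 287 with intervals widened 2 times, 1610 over all transcripts and 261 with an interval limit of 25%, beside 566, 2882 and 334 between the litters; without replicate 1 or 2 of segment B they numbered 447 to 451. No paired analysis was possible because only segment B carried replicate numbers. The cause of these shifts was not tested beyond the number of genes that each setting admits.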
